A study of Mus musculus with 5 samples.

Results

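The Cyp1, Cyp2 and Cyp3 genes of mouse liver were followed in hepatocytes of 5 single-cell RNA libraries that ran from the fed state to 24 h without food. Members were the genes whose symbol names subfamily and number in these 3 families, pseudogenes left out, and that reached 1 count per 1000000 counts (CPM) in at least 1 library. Of 32285 genes, 60 matched the symbol rule and 35 of these were members, while 25 stayed under 1 CPM everywhere. Just inside the limit were Cyp2g1 at 1.01 CPM and Cyp2c39 at 1.34 CPM in their highest library, and just outside were Cyp1a1 at 0.450 CPM and Cyp2d12 at 0.318 CPM. The livers came from male wild-type C57BL/6J mice on chow that had been accustomed over 3 days to 8 h of food by day and 16 h without it by night. All groups, the fed controls included, had 4 h of chow with 20% sucrose in the drinking water on the day of the experiment. The fed group was taken at clock hour 13 and the fasted groups 4, 8, 16 and 24 h later, at clock hours 17, 21, 5 and 13, so that hours without food and hour of day cannot be told apart except between 24 h and fed. Each group was 1 library of isolated hepatocytes, and the sources used here give neither the age of the mice nor the number behind a library. The series title names gluconeogenic gene expression across the liver lobule as the study's subject, so that the Cyp genes lie beside its stated question.

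Cytochrome P450 enzymes of these families are haem proteins of the endoplasmic reticulum that add an oxygen atom to drugs, toxins, steroids, fatty acids and bile acids, with electrons passed on by the reductase Por. Their genes answer to ligand-activated factors: the Ahr receptor drives Cyp1a genes, the receptor CAR (Nr1i3) drives Cyp2b and Cyp2c genes, and the receptor PXR (Nr1i2) drives Cyp3a genes. In the liver lobule many of them are active around the central vein, where Wnt signals keep a pericentral gene programme on, and far less around the portal vein. Several differ between the sexes under the pulses of growth hormone, with Cyp2d9 typical of males and Cyp2b9 of females.

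Each library held 10000 barcodes. Hepatocytes were barcodes with 1000 or more UMIs (unique molecular identifiers, each standing for 1 captured RNA molecule), 500 or more genes and 2 to 30% mitochondrial UMIs, and numbered 7826, 4567, 2716, 9125 and 4576 at 0, 4, 8, 16 and 24 h. Their median UMI count ranged from 4391 at 16 h to 15000 at 8 h, and their nuclear-encoded UMIs summed to between 33521626 and 45532684 a library. All 7 hepatocyte markers were present in each library, with a summed level of 89280 to 115500 CPM. The 10 endothelial markers summed to 108.7 CPM in the fed library and to 13.96 to 38.75 CPM in the fasted ones, and the 9 Kupffer cell markers to 42.3 CPM in the fed library and 0.148 to 6.06 CPM in the fasted ones, with 6 of them, Clec4f and Csf1r included, at 0 at 8 h. At 8 h, 3292 barcodes had enough UMIs and genes and at most 30% mitochondrial UMIs, beside 9359 to 9998 in the other libraries. Of these barcodes, those under 2% mitochondrial UMIs, left out here, made up 53.9% and 54.1% at 4 and 24 h. The other libraries stood apart at 2.5 to 21.7%. Among 28810 hepatocytes, 73 barcode sequences occurred in 2 or more libraries. With 1 library a time point there was no replicate check and no test was possible. Differences describe these libraries, not the feeding states, and all 95% intervals cover counting error only. Values are CPM of nuclear-encoded UMIs summed over the hepatocytes of a library, and since only 3' ends were counted, gene length does not enter a level. In such sums, fewer cells expressing a gene and less of its RNA in each cell cannot be told apart.

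The 35 members together held 15120 CPM in the fed library and 17880, 16720, 16320 and 14060 CPM in the fasted ones in time order, that is 1.41 to 1.79% of all nuclear-encoded UMIs. The family as a whole thus stayed within a narrow band while its members moved apart. Cyp3a11, the main Cyp3a enzyme of drug and steroid oxidation in mouse liver, was the most abundant member in each library, with 31.1%, 39.4%, 48.5%, 28.7% and 40.9% of the members' UMIs in time order. Next in the fed library came Cyp2f2, which acts on naphthalene and similar aromatics (12.1% of the members' UMIs), and Cyp2e1, the ethanol and ketone oxidizing enzyme (9.29%). At 24 h Cyp2e1 was no longer among the first 5, which were Cyp3a11, Cyp2f2, Cyp3a25, Cyp2d26 and Cyp2d10. At the other end of the range, 6 members stayed under 10 CPM in each library, and 19 of the 35 averaged 100 CPM or more.

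**Figure D1:**
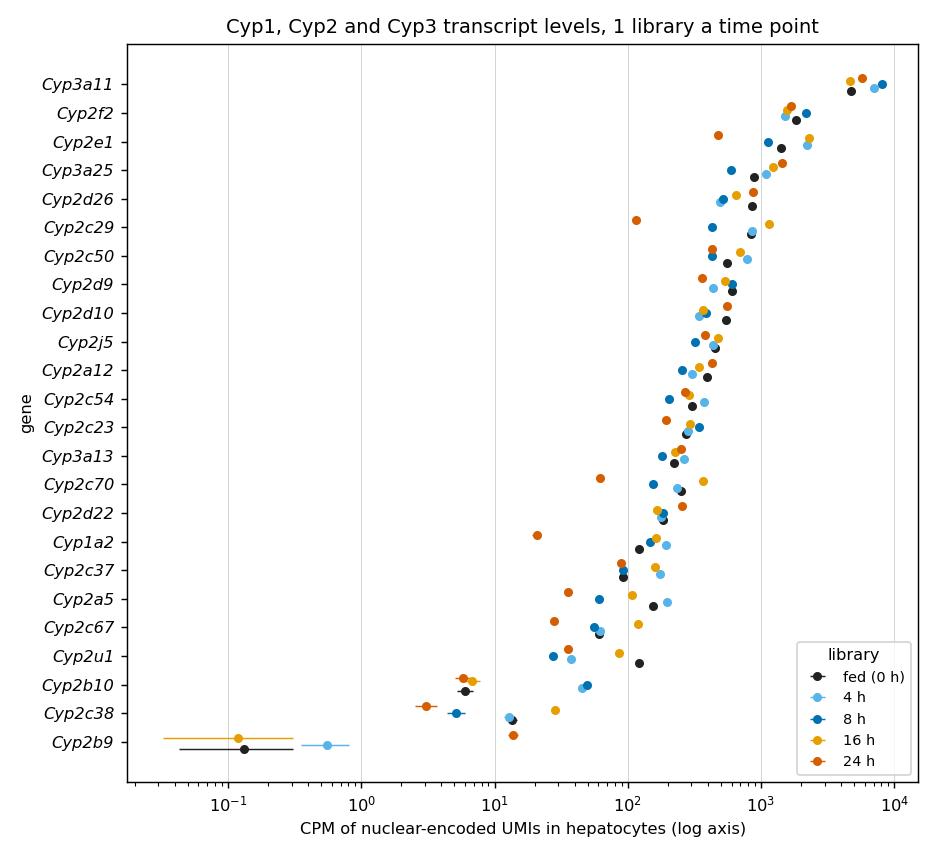
CPM of nuclear-encoded UMIs in hepatocytes on a log axis for the 24 members described one by one, with 1 point for each of the 5 libraries and bars for the 95% Poisson counting interval. Cyp3a11 lies highest in each library, and the points of Cyp2c29, Cyp1a2 and Cyp2c70 at 24 h lie far to the left of the other libraries.

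Most calls of members lay between fed and 24 h, the pair of libraries taken at the same clock hour. A gene was called higher or lower when its CPM differed 2-fold or more and reached 10 CPM in either library. At 24 h, 9 of the 28 members tested were called, where 13.5% of all 7356 genes tested were called, and 7 members lay under the minimum. Lower were 8 members (28.6%, where 8.77% of all genes were lower), namely Cyp2c29, Cyp1a2, Cyp2a5, Cyp2c38, Cyp2c70, Cyp2u1, Cyp2e1 and Cyp2c67. Higher was Cyp2b9 alone (4.73% of all genes were higher). The median log2 ratio of 24 h to fed was -0.18 over the 28 members and -0.10 over all genes tested, with 11 members above 0 and 17 below. With TMM scaling, which centres the bulk of genes, the median over all genes tested moved to 0.09, and 7 members were lower and 2 higher: Cyp2c67 dropped out at -0.95 and Cyp3a59 came in. Endothelial, Kupffer cell, cholangiocyte (78.09 and 26.98 CPM) and stellate cell markers (26.25 and 22.91 CPM) were also lower at 24 h than in the fed library. Markers of erythroid (1.80 and 14.69 CPM), T and NK (1.11 and 3.49 CPM), B (0.106 and 1.73 CPM) and neutrophil cells (0.318 and 0.426 CPM) were higher. Leaving out barcodes that looked like other cells (202 fed and 29 at 24 h) gave 8 lower and 1 higher as before. With barcodes of 2 to 15% mitochondrial UMIs alone the decreases were larger, at -3.77 for Cyp2c29, -3.44 for Cyp1a2, -3.03 for Cyp2a5 and -2.46 for Cyp2e1, and 10 members were lower. With those under 2% let in, 9 were lower and none higher, since Cyp2b9 then stayed under 10 CPM.

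**Figure D2:**
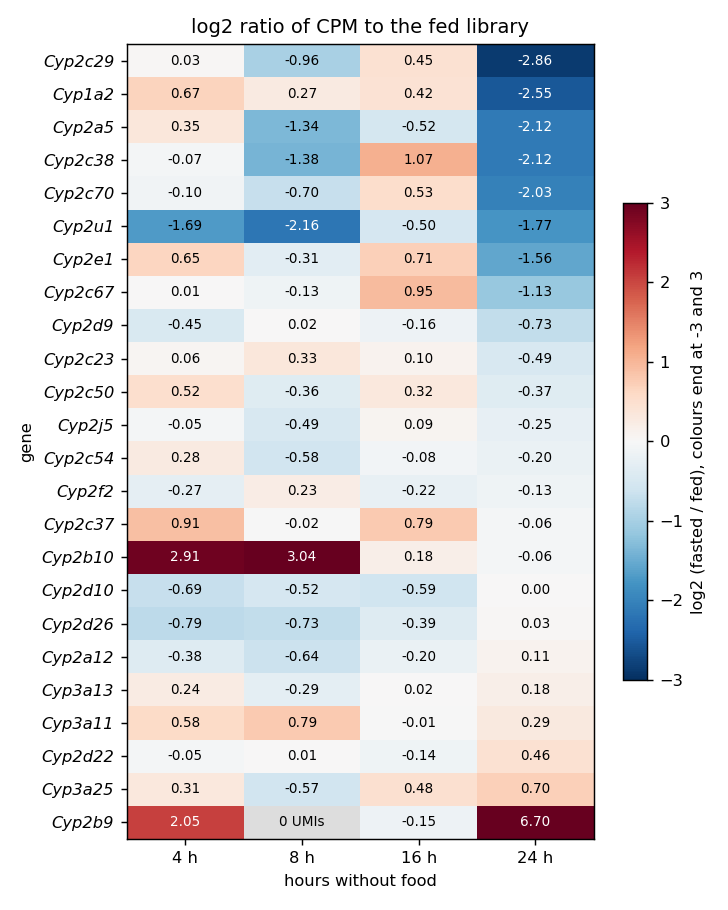
Heat map of the log2 ratio of CPM in each fasted library to the fed library for the 24 members (rows) at 4, 8, 16 and 24 h (columns), with the value printed in each cell. The column at 24 h holds the deep blue cells of Cyp2c29 (-2.86) and Cyp1a2 (-2.55) and the red cell of Cyp2b9, and the columns at 4 and 8 h hold the red cells of Cyp2b10.

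The promoters of 5 of the members that were lower at 24 h and of the member that was higher are printed here to show where a TATA box core lies in them. The 5 were picked from the lower members that hold it, with the results known, and add no support to the counts that follow. A RefSeq promoter (GRCm38.p6) was matched by symbol for 30 of the 35 members, those missing being Cyp2c54, Cyp2c23, Cyp2g1, Cyp2u1 and Cyp2d22. Each sequence is the 250 bases before the annotated start, 5′ to 3′ on the gene's strand, with capitals marking TATAAA, the core of a TATA box, or its reverse complement TTTATA. RefSeq starts differ from those of the GENCODE gene positions given with the members, so that the window of Cyp2c29 lies inside the GENCODE gene and those of Cyp2e1, Cyp1a2, Cyp2c70 and Cyp2a5 overlap its first bases. The windows are chr7:140763569-140763818 (+) for Cyp2e1, chr9:57683656-57683905 (-) for Cyp1a2, chr19:39286835-39287084 (+) for Cyp2c29, chr19:40187287-40187536 (-) for Cyp2c70, chr7:26835089-26835338 (+) for Cyp2a5 and chr7:26173159-26173408 (+) for Cyp2b9.
Cyp2e1: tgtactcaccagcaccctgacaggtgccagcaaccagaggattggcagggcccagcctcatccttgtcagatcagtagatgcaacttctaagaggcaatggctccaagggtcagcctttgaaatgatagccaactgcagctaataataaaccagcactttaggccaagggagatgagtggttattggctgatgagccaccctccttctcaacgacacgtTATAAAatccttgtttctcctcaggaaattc
Cyp1a2: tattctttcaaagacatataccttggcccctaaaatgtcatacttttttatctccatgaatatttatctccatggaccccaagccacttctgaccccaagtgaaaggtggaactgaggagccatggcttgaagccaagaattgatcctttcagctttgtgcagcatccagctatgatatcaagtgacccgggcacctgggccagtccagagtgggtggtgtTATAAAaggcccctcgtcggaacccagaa
Cyp2c29: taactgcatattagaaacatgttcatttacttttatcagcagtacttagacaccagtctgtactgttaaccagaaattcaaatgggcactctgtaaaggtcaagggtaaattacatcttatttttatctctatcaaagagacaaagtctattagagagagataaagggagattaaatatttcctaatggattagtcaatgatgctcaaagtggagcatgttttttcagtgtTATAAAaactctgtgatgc
Cyp2c70: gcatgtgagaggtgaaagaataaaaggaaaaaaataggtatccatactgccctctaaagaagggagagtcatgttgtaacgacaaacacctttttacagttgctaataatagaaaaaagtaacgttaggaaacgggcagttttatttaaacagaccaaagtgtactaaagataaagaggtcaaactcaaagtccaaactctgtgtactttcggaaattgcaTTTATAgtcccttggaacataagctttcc
Cyp2a5: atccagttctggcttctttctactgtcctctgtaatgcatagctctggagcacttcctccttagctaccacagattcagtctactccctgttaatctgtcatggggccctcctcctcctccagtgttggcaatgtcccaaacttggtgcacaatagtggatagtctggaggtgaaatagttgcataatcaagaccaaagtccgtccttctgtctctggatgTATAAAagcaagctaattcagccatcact
Cyp2b9: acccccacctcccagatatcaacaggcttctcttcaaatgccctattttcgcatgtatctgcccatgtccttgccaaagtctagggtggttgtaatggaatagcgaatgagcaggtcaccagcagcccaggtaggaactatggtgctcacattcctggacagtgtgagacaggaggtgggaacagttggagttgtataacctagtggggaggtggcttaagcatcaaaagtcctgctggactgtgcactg
The match began 31 bases before the start in Cyp2e1, 29 in Cyp1a2, Cyp2c70 and Cyp2a5, and 19 in Cyp2c29, and Cyp2b9 held none in this window. TATAAA on either strand was present in 12.4% of 32851 promoter windows of this length and in 16 of the 30 matched members (53.3%). It was present in 7 of the 7 matched members that were lower at 24 h and in 9 of the other 23. Over all genes with a promoter, the same match was found in 8.04% of those lower at 24 h, 8.02% of those higher and 6.42% of those not called, so that at large its share was alike in genes that were lower and higher. Among 8 other motifs searched on both strands, CTTTGA, the core bound by TCF factors of the Wnt pathway, was in 10 of the 30 members and in 13.8% of all windows, with 4 of the 7 lower members and 6 of the other 23. CCAAT was in 13 (33.8% of windows), with 1 of the 7 lower members and 12 of the other 23. AGGTCA, a core bound by nuclear receptors, was in 9 (14.0%), with 2 of the 7 and 7 of the 23. CAAAGTCCA, a core bound by Hnf4a, was in 5 (0.384%), with 2 and 3, and GTTAAT in 4 (6.43%), with 1 and 3. The Ahr core GCGTG was in 3 (28.2%), with 0 and 3, and TTATGTAA (0.819%) and TTGCGCAA (0.164%) were in none. A match is a description of letters, not of a bound site, and a window without one says nothing of the factor.

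Cyp1a2, the Ahr-driven enzyme that oxidizes caffeine and arylamines (ENSMUSG00000032310, GRCm38 chromosome 9, 57676937 to 57683703), was the single Cyp1 member. It stood at 121.3 CPM fed, 193 CPM at 4 h, 147 CPM at 8 h, 163 CPM at 16 h and 20.7 CPM at 24 h. The first 3 fasted libraries lay above the fed one and the last far below it. With barcodes of 2 to 15% mitochondrial UMIs alone, the log2 ratio to fed at 4 h was 0.07 in place of 0.67. The ratio of 24 h to fed was -2.55 on the log2 scale (95% interval -2.66 to -2.44), or 5.86-fold lower, and 24 h was 7.86-fold lower than 16 h. Of its relatives, Cyp1a1 stayed under 1 CPM and Cyp1b1 had 0 UMIs in each library.

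Cyp2e1 (ENSMUSG00000025479, chromosome 7, 140763739 to 140774987), which oxidizes ethanol and acetone, had 1404 CPM fed, 2197 CPM at 4 h, 1130 CPM at 8 h, 2304 CPM at 16 h and 478 CPM at 24 h. The 4 h and 16 h libraries were high, the 8 h library lay below the fed one, and the 24 h library was lowest. From fed to 24 h the log2 ratio was -1.56 (95% interval -1.58 to -1.53), a 2.94-fold lower level, and from 16 h to 24 h the level was 4.82-fold lower.

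The Cyp2a, Cyp2b and Cyp2f genes lie near each other on chromosome 7 and did not move as a block. Cyp2a5, the coumarin and nicotine oxidizing enzyme (ENSMUSG00000005547, 26835305 to 26843548), had 155 CPM fed, 197 CPM at 4 h, 61.3 CPM at 8 h, 108.0 CPM at 16 h and 35.6 CPM at 24 h. It was lower than fed at 8 h (log2 -1.34, interval -1.41 to -1.26) and at 24 h (-2.12, -2.21 to -2.04). Its neighbour Cyp2a12, a steroid hydroxylase, held 396 CPM fed, 304 CPM at 4 h, 254 CPM at 8 h, 345 CPM at 16 h and 427 CPM at 24 h and was not called at any time. Cyp2f2 likewise was not called, with 1835 CPM fed, 1522 CPM at 4 h, 2157 CPM at 8 h, 1573 CPM at 16 h and 1673 CPM at 24 h.

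Cyp2b10, the classic target of CAR (ENSMUSG00000030483, chromosome 7, 25897620 to 25926624), was the member with the largest early difference. It had 6.01 CPM fed, 45.2 CPM at 4 h, 49.5 CPM at 8 h, 6.802 CPM at 16 h and 5.77 CPM at 24 h. The 4 h and 8 h libraries were 7.53-fold and 8.24-fold above fed (log2 2.91, interval 2.71 to 3.12, and 3.04, interval 2.84 to 3.25), while the 16 h and 24 h libraries lay near the fed level. Its relative Cyp2b9, a female-typical gene (ENSMUSG00000040660, chromosome 7, 26173411 to 26210661), showed the opposite timing. It had 5 UMIs in the fed library, then 25, 0, 4 and 515 in the fasted ones in time order, which is 0.132, 0.549, 0, 0.119 and 13.7 CPM. A count of 0 at 8 h allows at most 0.109 CPM (upper bound of the exact Poisson interval). The 24 h level was 104-fold the fed level, with a wide interval from the 5 fed UMIs (log2 6.70, interval 5.46 to 8.32). The log2 ratio was 5.36 with the mean of per-cell CPM and 7.94 in cells of 3000 or more UMIs, and the call was lost with barcodes under 2% mitochondrial UMIs let in. The last 300 bases of the Cyp2b10 and Cyp2b9 transcripts share 83.3% of their bases, so that some reads may be exchanged between them. With barcodes of 2 to 15% mitochondrial UMIs alone, the log2 ratio of Cyp2b10 at 4 h was 2.23.

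Among the 12 Cyp2c members, enzymes of arachidonic acid, steroid and drug oxidation encoded on chromosome 19, 11 of them in a cluster and Cyp2c23 apart from it, 4 were lower at 24 h and 8 were not called or under the minimum. Cyp2c29 (ENSMUSG00000003053, 39269405 to 39330713), a CAR target, had 840.1 CPM fed, 856 CPM at 4 h, 431 CPM at 8 h, 1146 CPM at 16 h and 116 CPM at 24 h. Its 24 h level was 7.26-fold below fed (log2 -2.86, interval -2.91 to -2.82), the largest decrease of a member called at that time. Cyp2c70 (ENSMUSG00000060613, 40153353 to 40187333), which makes the muricholic bile acids of rodents, had 253 CPM fed, 236 CPM at 4 h, 155 CPM at 8 h, 364 CPM at 16 h and 62.0 CPM at 24 h. It was 4.07-fold lower at 24 h than fed (log2 -2.03, interval -2.09 to -1.96). Both genes were highest at 16 h and lowest at 24 h.

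Cyp2c38, an arachidonic acid oxidizing enzyme, was at low levels with 13.4 CPM fed, 12.8 CPM at 4 h, 5.15 CPM at 8 h, 28.2 CPM at 16 h and 3.09 CPM at 24 h. It was the only member called at 16 h (log2 1.07, interval 0.91 to 1.23), a call lost with the mean of per-cell CPM (0.85), and was lower than fed at 8 h (-1.38) and at 24 h (-2.12, interval -2.42 to -1.83). Cyp2c67 had 61.1 CPM fed, 61.4 CPM at 4 h, 55.9 CPM at 8 h, 118 CPM at 16 h and 27.9 CPM at 24 h. At 16 h its log2 ratio to fed was 0.95, and it passed the limit with TMM scaling (1.02) and with 2 to 15% mitochondrial UMIs (1.15). It was lower at 24 h (log2 -1.13, interval -1.24 to -1.02). Its near copy Cyp2c68 went from 72.2 CPM fed to 95.2 CPM at 24 h. The last 300 bases of Cyp2c67 and Cyp2c68 are 97.3% identical, and those of either and Cyp2c40 98.0%, so the split of counts among these 3 genes is uncertain.

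The levels of 4 further Cyp2c genes were not called at 24 h. Cyp2c50, an arachidonic acid epoxygenase, had 551 CPM fed, 788 CPM at 4 h, 428 CPM at 8 h, 689 CPM at 16 h and 425 CPM at 24 h. Its log2 ratio of 24 h to fed was -0.37, and -1.01, past the limit, with barcodes of 2 to 15% mitochondrial UMIs alone. Cyp2c54 had 305 CPM fed, 370.4 CPM at 4 h, 204 CPM at 8 h, 288 CPM at 16 h and 266 CPM at 24 h. Cyp2c37 had 92.4 CPM fed, 173 CPM at 4 h, 91.3 CPM at 8 h, 160 CPM at 16 h and 88.5 CPM at 24 h. These 3 genes share 89.0 to 93.7% of their last 300 bases, so that their counts too may be exchanged. Cyp2c23, the epoxygenase best known from kidney, had 273 CPM fed, 285 CPM at 4 h, 344 CPM at 8 h, 293 CPM at 16 h and 195 CPM at 24 h.

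The Cyp2d genes, homologues of the human drug-oxidizing CYP2D6, held 1528 to 2239 CPM in sum and none was called at any fasting time. Cyp2d26 had 855 CPM fed, 493 CPM at 4 h, 515 CPM at 8 h, 652 CPM at 16 h and 875 CPM at 24 h, and Cyp2d10 had 549 CPM fed, 340.1 CPM at 4 h, 384 CPM at 8 h, 366 CPM at 16 h and 550.4 CPM at 24 h. Both were lower than fed, short of 2-fold, in the middle of the series and near the fed level at 24 h. With barcodes of 2 to 15% mitochondrial UMIs alone, their log2 ratios of 24 h to fed were -0.39 for Cyp2d26 and -0.47 for Cyp2d10. Cyp2d9, the male-typical steroid 16-alpha-hydroxylase, had 602 CPM fed, 439 CPM at 4 h, 609 CPM at 8 h, 539.7 CPM at 16 h and 363 CPM at 24 h. Its lowest level was the one at 24 h (log2 -0.73, interval -0.76 to -0.70), short of the 2-fold limit, and with barcodes of 2 to 15% mitochondrial UMIs alone it was lower (-1.16). Cyp2d22 had 184 CPM fed, 177 CPM at 4 h, 185 CPM at 8 h, 167 CPM at 16 h and 254 CPM at 24 h.

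Cyp2u1, a fatty acid hydroxylase (ENSMUSG00000027983, chromosome 3, 131288441 to 131303227), was lower than fed in each fasted library. It had 121.5 CPM fed, 37.6 CPM at 4 h, 27.3 CPM at 8 h, 85.9 CPM at 16 h and 35.7 CPM at 24 h, with log2 ratios to fed of -1.69, -2.16, -0.50 and -1.77 in time order. It was called lower at 4, 8 and 24 h. It kept this direction at each time under each alternative. Of 27 members tested at all 4 fasting times, 8 (29.6%) were called at 1 time or more, where 23.7% of 7111 genes were. Cyp2j5, an arachidonic acid epoxygenase of hepatocytes, was not called at any time, with 449.8 CPM fed, 433 CPM at 4 h, 320.2 CPM at 8 h, 479 CPM at 16 h and 379 CPM at 24 h. Cyp2r1, the vitamin D 25-hydroxylase, lay between 6.30 and 11.3 CPM.

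The Cyp3a genes on chromosome 5, the most abundant subfamily and one with known PXR targets, summed to 5863 CPM fed, 8473 CPM at 4 h, 8932 CPM at 8 h, 6201 CPM at 16 h and 7548 CPM at 24 h. Cyp3a11 (ENSMUSG00000056035, 145854426 to 145879964) had 4696 CPM fed, 7043 CPM at 4 h, 8114 CPM at 8 h, 4678 CPM at 16 h and 5748 CPM at 24 h. It was 1.73-fold above fed at 8 h, short of the limit (log2 0.79, interval 0.78 to 0.80), and passed it with TMM scaling (1.03). Cyp3a25 had 882 CPM fed, 1096 CPM at 4 h, 596 CPM at 8 h, 1228 CPM at 16 h and 1437 CPM at 24 h, so that it was lowest at 8 h, where Cyp3a11 was highest. Cyp3a13 had 222 CPM fed, 262 CPM at 4 h, 182 CPM at 8 h, 224 CPM at 16 h and 251 CPM at 24 h. Cyp3a25 shares 94.7% of its last 300 bases with Cyp3a59, a member of 41.1 to 112 CPM, and their counts may be exchanged.

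In the earlier fasted libraries fewer members differed from fed. At 4 h, 2 of 28 members tested were called, where 9.71% of all genes were: Cyp2b10 was higher (3.67% of all genes were) and Cyp2u1 lower (6.04%). At 8 h, 4 of 28 were called, where 16.9% of all genes were: Cyp2b10 was higher (5.68% of all genes) and Cyp2u1, Cyp2a5 and Cyp2c38 were lower (11.2%). At 16 h, 1 of 27 was called, where 6.47% of all genes were: Cyp2c38 was higher (2.87%) and none lower (3.6%). With TMM scaling the split was 2 higher and 1 lower at 4 h (Cyp2c37 passed at 1.12), 2 higher and 3 lower at 8 h, and 2 higher and 0 lower at 16 h. In these 3 libraries the median log2 ratio of the members tested was 0.04, -0.34 and 0.13, beside -0.09, -0.08 and -0.02 for all genes tested. At 4, 8 and 16 h the members were thus called no more often than genes at large.

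To place the members along the lobule, each hepatocyte was scored by Glul and Gulo, made near the central vein, against Hsd17b13 and Pigr, made towards the portal vein, and the cells of each library were split into 3 equal parts, called central, middle and portal zone. No member entered the score. In the fed library 10 of 28 members tested were 2-fold or more higher in the central zone and none in the portal zone, where 2.25% of all genes were called, 2.07% central and 0.177% portal. At 4 h it was 13 of 29, 12 central and Cyp2f2 portal, beside 3.09% of all genes (1.69% central and 1.4% portal). At 8 h it was 11 of 27, all central, beside 1.72% of all genes (1.17% central and 0.544% portal). At 16 h it was 12 of 28, 11 central and Cyp2f2 portal, beside 2.25% of all genes (1.61% central and 0.642% portal). At 24 h it was 4 of 26, all central, beside 0.922% of all genes (0.835% central and 0.0864% portal). The members were thus called by zone far more often than genes at large in each library. Of 25 members tested in all 5 libraries, 8 were higher in the central zone each time, 6 higher in the portal zone each time and 11 mixed. Of 6195 genes tested in all 5, 26.2% were central and 6.94% portal each time. At 24 h some of these directions turned with the settings: Cyp2c67 (-0.32), Cyp2c37 (-0.08), Cyp2c54 (-0.12) and Cyp2c50 (-0.47), of the 8 central members, lay on the portal side with barcodes under 2% mitochondrial UMIs let in, and Cyp2a12 (0.23), of the 6 portal ones, on the central side with longer landmark lists.

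Cyp2e1, Cyp2c29, Cyp1a2 and Cyp2a5 were called central in all 5 libraries. With barcodes under 2% mitochondrial UMIs let in, Cyp2c29 (log2 0.90) and Cyp1a2 (0.64) lost the call at 24 h. Fed Cyp2e1 stood at 4115 CPM in central and 228 CPM in portal cells, an 18.1-fold ratio. Its log2 ratios of central to portal at 0, 4, 8, 16 and 24 h were 4.17, 5.38, 5.89, 4.18 and 3.27. Those of Cyp2c29 were 4.01, 5.45, 6.07, 4.09 and 1.74, and those of Cyp1a2 were 3.30, 4.05, 3.72, 3.90 and 1.55 in the same order. For these 3 genes the gradient was flattest at 24 h. With longer landmark lists of 10 genes a side this held for Cyp2c29 (4.18 at 24 h) and Cyp1a2 (3.196) but not for Cyp2e1, whose ratio was 5.32 fed, 4.82 at 16 h and 5.59 at 24 h. Cyp2a5 kept a steep one, with log2 ratios of 4.68, 6.10, 6.28, 4.61 and 4.81. The steep ratios at 4 h depended on the cell filter: with barcodes of 2 to 15% mitochondrial UMIs alone they were 3.17 for Cyp2e1, 3.29 for Cyp2c29, 2.67 for Cyp1a2 and 4.18 for Cyp2a5.

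**Figure D3:**
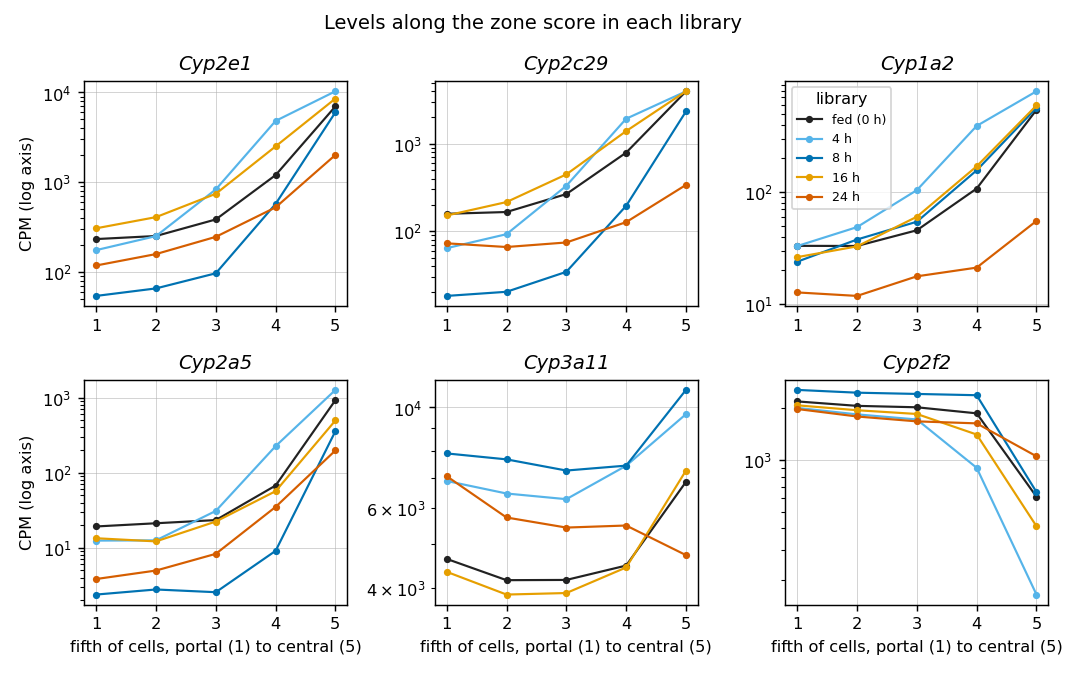
CPM on a log axis in 5 equal parts of the hepatocytes of each library, ordered by the zone score from portal (1) to central (5), for 6 members, with 1 line a library. Cyp2e1, Cyp2c29, Cyp1a2 and Cyp2a5 climb towards part 5 in each library, Cyp2f2 drops there, and the 24 h lines of Cyp2c29 and Cyp1a2 are the flattest of their panels.

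Cyp2f2 was the abundant member of the portal side, with fed levels of 2135 CPM in portal and 1236 CPM in central cells and with log2 ratios of -0.79, -2.22, -0.89, -1.35 and -0.50 in time order. Cyp3a11 had a weak central lean in 4 libraries, with log2 ratios of 0.36, 0.38, 0.28 and 0.53 at 0, 4, 8 and 16 h, and leaned to the portal side at 24 h (-0.34). With barcodes under 2% mitochondrial UMIs let in, its ratio at 4 h was -0.08. Cyp2d9 had ratios of 0.27, 0.54, 0.59, 0.55 and -0.65 in time order, and with the longer landmark lists it stayed on the central side at 24 h (0.27). At 24 h, 18 of the 26 members tested lay below 0, with a median log2 ratio of -0.31 beside 0.12 for all genes tested. Of the 24 members described one by one, 15 lay below 0 at 24 h, and with the longer landmark lists 9 did. The landmarks themselves were less far apart at 24 h: Gulo reached 36.3 CPM in its central zone beside 286 CPM fed, and Hsd17b13 had 588 CPM there beside 179 CPM fed. Cells of the central zone also held fewer UMIs, with a median of 3651 beside 10170 in the portal zone at 24 h and of 3978 beside 5702 fed. This gap was widest at 4 h, with a median of 3320 beside 16990. Between 17.1 and 21.7% of the cells of a library lay within 0.1 SD of a zone border. The part of these differences in the zone ratios was not tested. With the longer landmark lists, 9 members were called central at 24 h, and with barcodes under 2% mitochondrial UMIs let in, 2 central and 15 portal.

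Of the 10 members called central at 16 h and tested at 24 h, 6 (60.0%) were lower than fed at 24 h, and of the 16 called in neither zone 2 (12.5%) were, Cyp2u1 and Cyp2c70. At large, 47 of 90 genes called central at 16 h (52.2%) were lower at 24 h, and 508 of 6764 genes in neither zone (7.51%), so that most lower genes at large were in neither zone. The share among central members was thus near that among central genes at large. The exceptions among the members were Cyp2c37, Cyp2c50, Cyp2c54 and Cyp2c68, central at 16 h and not called at 24 h.

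**Figure D4:**
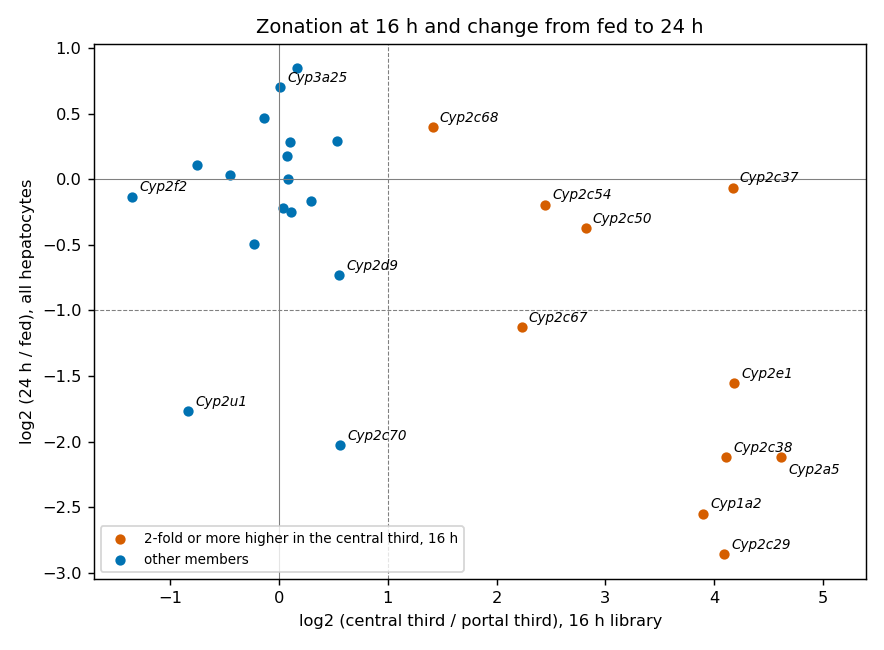
Each point is 1 of 27 members, placed by its log2 ratio of central to portal zone at 16 h (x axis) and of 24 h to fed over all hepatocytes (y axis), with dashed lines at 2-fold. Orange points, called central at 16 h, reach down to -2.86 for Cyp2c29, while Cyp2c37, as central as Cyp2e1, stays near 0.

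Within the zones, the levels of Cyp2c29, Cyp1a2 and Cyp2e1 at 24 h differed from fed more in the central than in the portal zone. For Cyp2e1 this turns with the longer landmark lists, under which its gradient was steeper at 24 h (5.59) than fed (5.32). Cyp2c29 had 2404 CPM in fed central cells and 228 CPM at 24 h (log2 -3.40, interval -3.46 to -3.34), and 149 and 68.2 CPM in the portal zone (-1.13, -1.24 to -1.02). Cyp1a2 had 329 and 37.3 CPM in the central zone (log2 -3.14) and 33.5 and 12.8 CPM in the portal zone (-1.39). Cyp2e1 had 4115 and 1262 CPM in the central zone (log2 -1.71) and 228 and 131 CPM in the portal zone (-0.80). Cyp2c70 too was lower by more in the central zone (log2 -2.34, interval -2.47 to -2.22) than in the portal zone (-1.79, -1.91 to -1.68). Cyp2a5 had log2 ratios of -2.06 central and -2.19 portal. Cyp2c50 and Cyp2c54, not called over all hepatocytes, had lower levels in the central zone (log2 -1.27 and -0.99) and higher ones in the portal zone (0.73 and 0.65). The difference between zones was not tested.

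The share of cells with a UMI was compared after thinning each cell to 1000 nuclear-encoded UMIs. Cyp2b10 was found in 0.630% of fed hepatocytes (48 of 7624, 95% exact binomial interval 0.465 to 0.834%), and then, in time order, in 4.57%, 5.15%, 0.792% and 0.594%. Before thinning these shares were 2.73%, 21.4%, 22.6%, 2.37% and 4.11%. In the endothelial-like barcodes of the 5 libraries (259, 7, 17, 45 and 24) none held a Cyp2b10 or Cyp2b9 UMI, which in the fed library allows up to 1.41%, at a median depth of 1706 UMIs beside 4836 in hepatocytes. These barcodes include those under 2% mitochondrial UMIs, which the hepatocytes leave out. Cyp2b9 was found in 0.0656% of fed hepatocytes (5 cells) and 1.12% at 24 h (51 of 4547, interval 0.836 to 1.47%), or 7.96% at 24 h before thinning. At 24 h its level was 10.2 CPM in the central and 16.2 CPM in the portal zone, and Cyp2b10 at 4 h had 128 CPM central and 21.3 CPM portal. The few endothelial-like barcodes of the fasted libraries bound this background poorly, at up to 41.0% at 4 h and 19.5% at 8 h.

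For Cyp2e1 the share of cells could not be read as expression. It was found in 34.9% of fed hepatocytes after thinning and in 49.4% of the fed endothelial-like barcodes (128 of 259, interval 43.2 to 55.7%), a cell type that should lack it. The endothelial-like barcodes include those under 2% mitochondrial UMIs, which the hepatocytes leave out. In the fed library barcodes under 2% held more Cyp2e1 than hepatocytes (2050 beside 1404 CPM), and doublets were not removed. The share in hepatocytes lay at or below this background, taken with a wider filter. The part of free RNA in the portal level of Cyp2e1 was not tested. For Cyp2c29 the shares were 28.9% and 22.8%, and for Cyp1a2 10.2% and 5.79%.

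**Figure D5:**
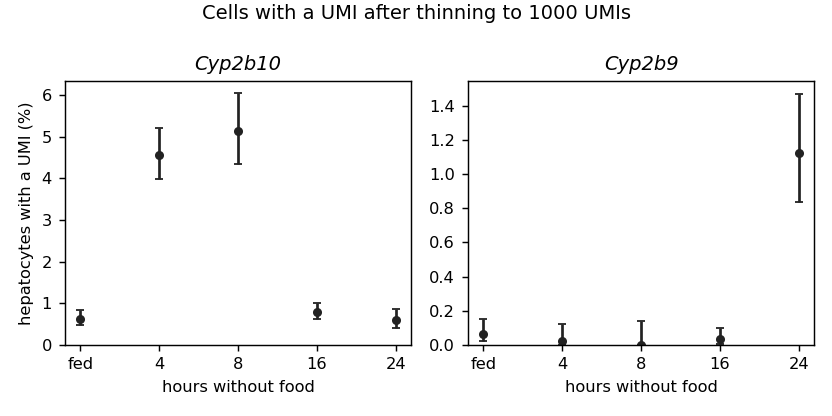
Share of hepatocytes with at least 1 UMI of Cyp2b10 (left) and Cyp2b9 (right) in each library after thinning to 1000 UMIs a cell, with exact 95% binomial intervals. Cyp2b10 stands at 4.57% and 5.15% at 4 and 8 h and under 1% elsewhere, and Cyp2b9 at 1.12% at 24 h.

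Acute-phase transcripts, which the liver makes in inflammation, differed widely between libraries. Saa1, Saa2, Saa3, Lcn2 and Orm2 summed to 691 CPM fed, 2339 CPM at 4 h, 75.2 CPM at 8 h, 10470 CPM at 16 h and 72.1 CPM at 24 h. Their part in the differences between libraries was not tested. Within the 16 h library, cells in the upper of 3 equal parts by these genes had 3 of 28 members called against the lower part, where 1.82% of all genes were called (1.18% higher and 0.644% lower). Cyp1a2 (241 and 103 CPM, log2 1.22) and Cyp2c67 (175 and 71.5 CPM, 1.29) were higher in the acute-phase-rich cells and Cyp2b10 lower (4.86 and 10.0 CPM, -1.04). For Cyp2e1 the direction differed between libraries, with 3239 and 1722 CPM in rich and poor cells at 16 h (log2 0.91) and 895 and 3781 CPM at 4 h (-2.08). Cyp1a2 (-1.84) and Cyp2c67 (-1.22) were likewise lower in the rich cells at 4 h. The split was not matched for zone. Cyp2c29, central in each library, was higher in rich cells at 16 h (0.53) and lower at 4 h (-2.10). Cyp2f2, of the portal side, went the other way (-0.56 and 0.41). The part of zone in these values was not tested.

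Genes that work with the P450 enzymes were taken from 4 lists. At 24 h the share of all genes called was 4.73% higher and 8.77% lower, against which the counts of the lists at 24 h are to be read. At 4, 8 and 16 h, 3.67, 5.68 and 2.87% of all genes were higher and 6.04, 11.2 and 3.6% lower. Of 5 electron donors, Por, the reductase that all these enzymes depend on, was the one called, with 159 CPM fed, 400.2 CPM at 4 h, 738 CPM at 8 h, 171 CPM at 16 h and 516 CPM at 24 h, higher at 4, 8 and 24 h. Of 11 genes of haem synthesis and breakdown, 8 were tested and none was higher at any time. Alas1, the rate-limiting step of haem synthesis, had 359 CPM fed, 221 CPM at 4 h, 98.3 CPM at 8 h, 161 CPM at 16 h and 316 CPM at 24 h and was lower at 8 and 16 h, and Hmox1, which breaks haem down, was lower at 4, 8 and 24 h (13.6 CPM fed and 2.93 CPM at 24 h).

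Of 7 xenobiotic receptors and partners, 6 were tested, and at 24 h 2 were higher and 1 lower, beside 4.73% and 8.77% of all genes. Nr1i2 (PXR) had 29.7 CPM fed, 60.9 CPM at 4 h, 72.7 CPM at 8 h, 34.1 CPM at 16 h and 62.7 CPM at 24 h, and was higher at 4, 8 and 24 h. Nr1i3 (CAR) had 91.9 CPM fed and 193 CPM at 24 h, and at 4 and 8 h, where Cyp2b10 was high, 100.5 and 78.4 CPM. Ahr was not called at any time, with 16.4 CPM fed and 14.2 CPM at 24 h, while Tiparp, an Ahr target, was lower at 4, 8 and 24 h (22.7 CPM fed and 11.1 CPM at 24 h). Of 18 liver regulators of Cyp genes, 17 were tested, and at 24 h Ppara was higher (57.2 CPM fed and 134 CPM) and Onecut1, Bcl6 and Tcf7l2 were lower, beside the same shares of all genes. Bcl6, a repressor of female-typical genes in male liver, had 19.3 CPM fed, 4.44 CPM at 4 h, 26.5 CPM at 8 h, 30.7 CPM at 16 h and 4.63 CPM at 24 h. Cux2, a female-typical factor, had 0.371 CPM fed and 8.06 CPM at 24 h, under the minimum. Dbp, a clock output factor, had 55.3 CPM fed, 6.17 CPM at 4 h, 1.92 CPM at 8 h, 79.7 CPM at 16 h and 62.9 CPM at 24 h. Of 9 female-typical Cyp genes, Cyp2b9 was the one that reached the minimum, and of the others Cyp2c40 alone passed 1 CPM in any library.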

How the data were processed

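Droplet-based single-cell RNA sequencing was done on hepatocytes isolated from mouse liver with the 10x Genomics 3' v3 chemistry, per the labels' protocols. The deposited values were raw UMI counts per gene and barcode, not normalized. The submitters' processing notes name Cell Ranger 6.0.1 and the build mm10, and the sources used here do not name the annotation. Cell types and zones were assigned here. No doublets were removed here.

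Hepatocytes were selected by UMI, gene and mitochondrial limits, and UMIs were summed per library and divided by nuclear-encoded UMIs. Ratios have exact conditional binomial intervals and levels exact Poisson intervals (95%). A call needed a 2-fold ratio and 10 CPM in either group. Alternatives were TMM factors (edgeR 4.0.16 in R 4.3.3), denominators, cell filters, minimums, folds, landmarks and zone widths. Named with values in each library were members averaging 100 CPM or more, and members of 10 CPM or more in any library that were called at 2 or more fasting times or at 24 h. Of 32285 gene IDs, 32158 were found in GENCODE M21 (GRCm38), the source of positions. Barcodes with UMIs of 3 or more markers of another cell type making up 0.5% or more of their UMIs (erythroid 5%) were called other-cell-like. The calls were run on simulated counts drawn from the fed profile with Poisson error alone. Such counts hold no difference between animals or libraries, so that they cannot show how the calls would repeat. Members, gene lists and motifs were chosen with earlier results of these data known. Other software was biopython 1.88, matplotlib 3.10.9 and scipy 1.17.1 with pandas 2.3.3 and numpy 2.4.6 under python 3.11.15.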

Additional observations from a re-analysis of the deposited data

Results flagged for a closer look

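Cyp2c37 differed in opposite directions in the 2 zones between fed and 24 h. In the central zone it had 269.8 CPM fed and 126 CPM at 24 h (log2 -1.10, 95% interval -1.20 to -1.003), and in the portal zone 16.7 and 71.7 CPM (2.10, 1.89 to 2.32), while its level over all hepatocytes was 92.4 and 88.5 CPM. The difference between zones was not tested. Its last 300 bases are 93.7% identical to those of Cyp2c50, which showed the same signs, and at 24 h the zone landmarks were closer together than in the fed library.

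Barcodes under 2% mitochondrial UMIs, outside the comparisons, held UMIs of all 35 members in the 24 h library. There the 8 members lower at 24 h were lower than in the like barcodes of the fed library, with log2 ratios of -4.12 for Cyp2c29, -4.02 for Cyp1a2, -3.36 for Cyp2a5, -3.03 for Cyp2c70 and -2.64 for Cyp2e1. Over 26 members that reached 10 CPM in these barcodes the median log2 ratio was -1.30, with 23 below 0 and 3 above, and over 6916 genes it was -0.27. Among the members given one by one in the report and tested but not called in hepatocytes it ran from -1.95 for Cyp2c54 to 0.26 for Cyp3a25, with Cyp2a12 at -0.06. Cyp2b9 had 0 UMIs in these barcodes in the fed library and 1.82 CPM at 24 h.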

How the results depend on the processing

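No paired analysis was possible because each group was 1 library. There were 11 alternatives to the comparison with fed and 7 to the zones. Those that set a minimum or a fold move calls alone and cannot turn a ratio. No named ratio that was called changed direction under any alternative that recomputed it. The count of 9 members called at 24 h stayed within 1.5 times of 9 throughout, and the counts of central or portal members at 0, 4, 8 and 16 h did likewise. At 4 h (2 called) the count was 1 with a minimum of 50 CPM, 5 with 1 CPM and 8 with a 1.5-fold limit. At 8 h (4 called) it was 2 with 50 CPM and 13 with 1.5-fold. At 16 h (1 called) it was 2 with TMM scaling, 2 with 2 to 15% mitochondrial UMIs, 0 with 50 CPM, 3 with 1 CPM, 5 with 1.5-fold and 0 with the mean of per-cell CPM, an alternative chosen after seeing the data, as was 5 to 30% mitochondrial UMIs. In the zones at 24 h (4 called) it was 8 in the outermost of 5 parts (6 central and 2 portal), 9 with longer landmark lists and 17 with 0 to 30% mitochondrial UMIs (2 central and 15 portal), where Cyp2c29 (0.90) and Cyp1a2 (0.64) lost their central call. The cause was not tested. Of the single values of named members, 358 of the ratios to fed and 308 of the zone ratios stayed within their counting interval, and 401 and 395 moved beyond it. Counts of a few UMIs limit Cyp2b9 before 24 h, and central cells are the shallower ones.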

Other observations

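Low members with a pattern of their own were Cyp2j9, with 2.57 CPM fed and 3.79 to 7.01 CPM in the fasted libraries, and Cyp2a22, with 0.325 to 0.857 CPM up to 16 h and 2.40 CPM at 24 h. Cyp2c55 had 1.54 CPM fed, 3.93 CPM at 4 h and 0.692 CPM at 24 h, and Cyp2c40 had 3.16 CPM at 16 h and 0.213 CPM at 24 h. All lay under the 10 CPM minimum. Of the 25 genes under 1 CPM, 10 had 0 UMIs in the hepatocytes of each library.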
